A study of Homo sapiens with 6 samples.

Results

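Genes for proteins that the liver secretes into plasma were examined for H4K5la, the lactylation of lysine 5 on histone H4. The lactyl group derives from lactate. The set holds 44 genes among 19970 protein-coding genes of chromosomes 1 to 22 and X. The genes were chosen by name, with earlier results of these data known. A member counted as marked in a library when a peak overlapped its RefSeq span extended by 5 kb on either side, called its window here. All 44 symbols matched the gene table. The mark was mapped by ChIP-seq (sequencing of immunoprecipitated chromatin) in PLC/PRF/5, an established line from a human hepatocellular carcinoma. The control cells received no added lactate, and the treated cells were cultured with 20 mM lactate for 24 h. Each group has 2 libraries with a peak list, replicates 2 and 3. The 2 input libraries, made without antibody, are not analysed here, as they come without peak lists. No other agent or genetic change is named in the labels. All groups come from this tumour line, which limits them as a model of hepatocytes.

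Hepatocytes make most of the protein in plasma, and their secretory genes fall into a few functional families. Carriers bind hormones, iron, haem or vitamins. Acute-phase proteins change with inflammation, protease inhibitors hold plasma proteases in check, clotting factors and complement act as cascades of proteases, and apolipoproteins assemble lipoprotein particles. In normal liver these genes are driven by factors such as HNF4 and C/EBP. Histone lactylation is an acyl mark that has been described at promoters and enhancers of active genes.

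The lists held 52215 and 52959 peaks in controls against 37951 and 38402 peaks after lactate, so every count below is read against a smaller number of peaks after lactate. Paired values are given in the order replicate 2, replicate 3. Coordinates are on hg38, and the gene spans are those of GRCh38.p14, the same build. A peak list shows where signal passed a threshold, and the mark may be present below that threshold at genes without a peak. The lists give no read counts, and depth is therefore not known from them. Nothing in the labels says that the replicates were separate cultures, so p-values measure only how far these libraries spread, which could be technical variation.

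The first question was which plasma protein genes carried the mark at all. F10, F7, F2, ITIH1, ITIH4, SERPINF2, AMBP, APOC3, APOA1, CFB, ORM2 and F12 had a peak in their window in all 4 libraries. These 12 members are 27.3% of the set, beside 33.0% of all coding genes. HAMP, APOA2, APOA4 and C5 were marked in controls alone, with peaks in both of these libraries and none after lactate. That is 4 members, or 9.09%, beside 5.77% of coding genes. With flanks of 10 kb C5 alone stayed in this class, beside 3 members in the lactate libraries alone. With a -log10 q of at least 5, HAMP, APOA2 and APOA4 stayed in it, beside 5.17% of coding genes, and C5 became mixed. With equal numbers of peaks per library HAMP and APOA4 stayed, beside 2.64% of coding genes, and C5 was again mixed. The nearest lactate peaks lay 5359 and 5328 bp from HAMP, 5664 and 5774 bp from APOA4, and 7158 and 23535 bp from APOA2. With flanks of 5 kb no member had a peak in the lactate libraries alone, where the share over coding genes was 1.11%. TF, CRP, SERPINA1, SERPIND1, VTN, APOE and C3 were mixed, 7 members beside 19.5% of coding genes. The other 21 members, 47.7%, had no peak in any library, beside 40.6% of coding genes. The member windows are shorter than most, with a median gene length of 10857 bp against 24190 bp over all coding genes.

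**Figure D1:**
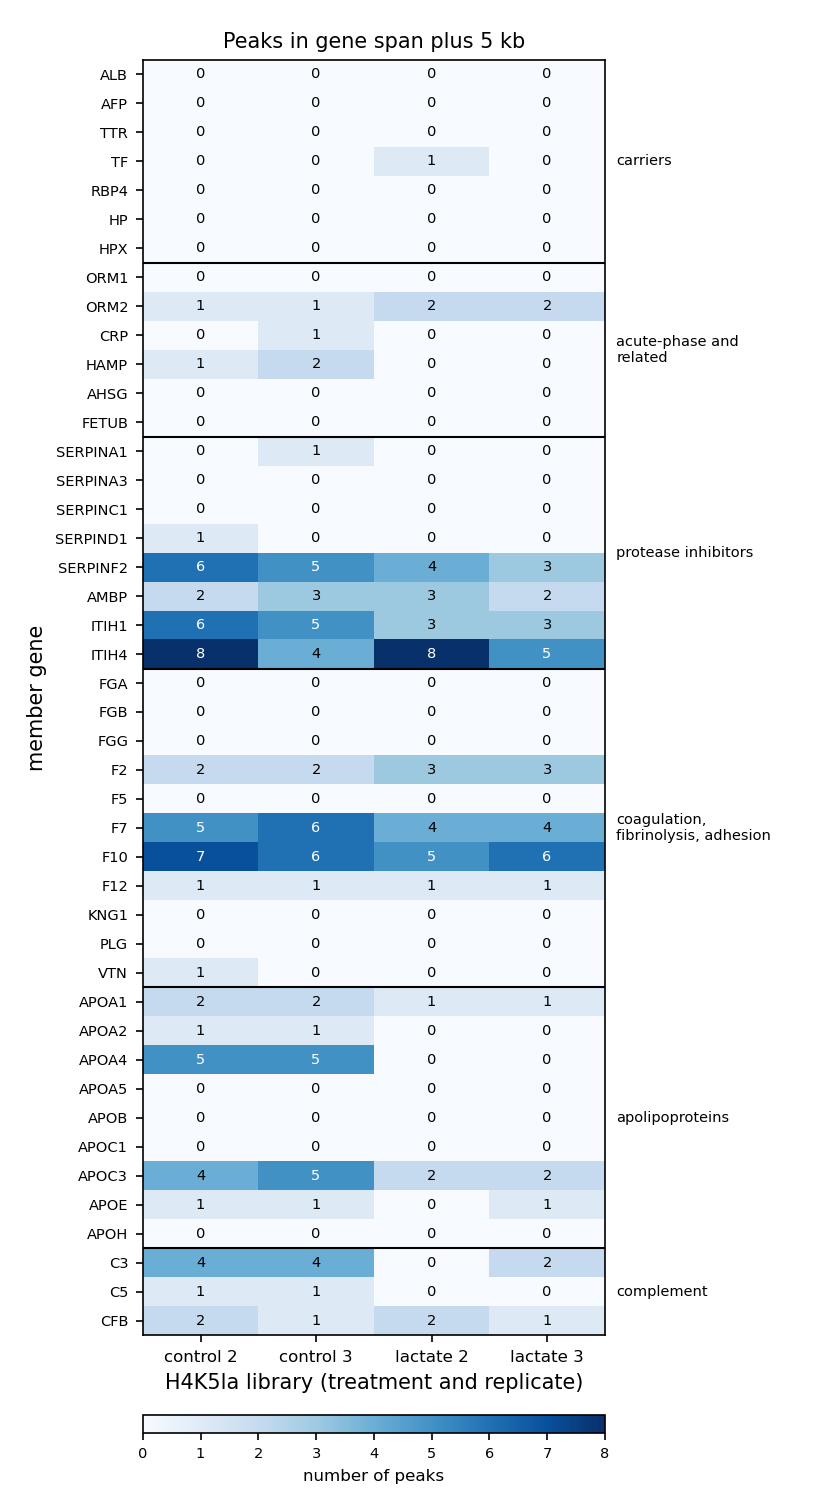
Number of H4K5la peaks in the span plus 5 kb of each of the 44 members (rows, grouped by role) in the 4 libraries (columns). The colour and the printed digit both give the number of peaks. Rows of 0 fill most of the carriers and the fibrinogen genes, while F7, F10, ITIH1, ITIH4 and SERPINF2 hold between 3 and 8 peaks in every library.

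Carriers were the role with the fewest peaks. ALB (serum albumin), AFP (the fetal albumin relative used as a liver tumour marker), TTR (thyroxine and retinol-binding protein carrier), RBP4 (retinol carrier), HP (haemoglobin scavenger) and HPX (haem scavenger) had 0 peaks in all 4 libraries. TF, the iron carrier transferrin, had 1 peak of 364 bp in lactate replicate 2, inside the gene, and none elsewhere. The peaks nearest to ALB lay 392526 and 392735 bp from the gene in controls against 55623 and 55709 bp after lactate. For AFP, which neighbours ALB, the distances were 397117 and 396979 bp in controls against 20931 and 21017 bp after lactate. Both lactate libraries thus held a peak nearer to this pair of genes than either control library did. The peak nearest to TTR in any library lay 122416 bp from the gene. HP has a near-identical neighbour, HPR, so reads there may be assigned uncertainly.

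Among the acute-phase and related genes, ORM2 (orosomucoid, an acute-phase carrier of drugs) had 1 and 1 peaks in controls against 2 and 2 peaks after lactate. These peaks lay within 5 kb of the gene and not in it, inside the neighbouring gene AKNA. The bases they covered were 449 and 505 in controls against 825 and 908 after lactate, so both lactate libraries were above both controls. ORM1, a near-identical copy beside it, had none, and reads from these copies cannot be told apart with certainty. HAMP, which encodes the iron hormone hepcidin, had 1 and 2 peaks in controls against 0 and 0 after lactate. The HAMP peaks lay upstream, inside the neighbouring gene USF2, 949 and 1081 bp wide at their widest. They reached the HAMP window by its edge, covering only 140 and 604 bp of it. With the summit required inside the window, HAMP had no peak in control replicate 2. CRP, the classic acute-phase reactant, had 1 peak of 339 bp upstream of the gene in control replicate 3 alone. AHSG and FETUB, the fetuin genes, had none.

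The protease inhibitors held the most peaks of any role, at 23 and 18 in controls against 18 and 13 after lactate. ITIH4, a heavy chain of the inter-alpha-trypsin inhibitor family that stabilises hyaluronan, had 8 and 4 peaks in controls against 8 and 5 after lactate. ITIH1, another heavy chain near it on chromosome 3, had 6 and 5 peaks in controls against 3 and 3 after lactate. Here the controls lay above both lactate libraries, but the window includes peaks in the neighbouring gene ITIH3. Inside the ITIH1 span the counts were 4 and 3 in controls against 3 and 2 after lactate, which overlap. The ITIH4 counts of the groups overlapped as well. SERPINF2, the plasmin inhibitor alpha-2-antiplasmin, had 6 and 5 peaks in controls against 4 and 3 after lactate. Both control counts include a peak in the flanking gene WDR81. Inside the SERPINF2 span the counts were 5 and 4 in controls against 3 and 2 after lactate. AMBP, the precursor of alpha-1-microglobulin and bikunin, had 2 and 3 peaks in controls against 3 and 2 after lactate, which overlap. Its broad peak inside the gene, within 114070013 to 114071692 of chromosome 9, was 1561 and 1583 bp wide in controls against 1347 and 1305 bp after lactate. The fold enrichment given by the authors for this peak was 10.1 and 12.1 in controls against 4.31 and 4.48 after lactate. In replicate 3 of each group the AMBP count includes a peak in the flanking gene ZNF618.

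SERPINA1 (alpha-1-antitrypsin, the main elastase inhibitor of plasma) and SERPIND1 (heparin cofactor II) each had 1 peak in 1 control library. The SERPINA1 peak, in control replicate 3, was 317 bp wide. The SERPIND1 peak, in control replicate 2, was 485 bp wide and lay where the gene overlaps PI4KA. SERPINA3 (antichymotrypsin) and SERPINC1 (antithrombin) had none.

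The coagulation, fibrinolysis and adhesion genes were split. The neighbouring genes F7 and F10, which encode factors of the extrinsic and common clotting pathways, lie on chromosome 13 and share part of their windows. F10 (113122799 to 113149529) had 7 and 6 peaks in controls against 5 and 6 after lactate. F7 (113105791 to 113120685) had 5 and 6 peaks in controls against 4 and 4 after lactate. In the F7 span itself there were 3 and 4 in controls against 1 and 1 after lactate. The pair had the highest places of the set by the authors' fold enrichment, a ratio of signal over background at the summit. Their best peaks stood on average 4.76% (F10) and 7.26% (F7) from the top of each list. In controls the best F7 peaks reached into F10 or lay in it, and after lactate they lay upstream of F7. For F10 the highest fold was 12.8 and 13.6 in controls against 15.8 and 11.8 after lactate. F2, prothrombin, had 2 and 2 peaks in controls against 3 and 3 after lactate.

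The peak of F12 (factor XII, the contact factor) lay within 5 kb of the gene, in SLC34A1, in all 4 libraries. Its fold of 3.03 and 3.49 in controls against 3.09 and 3.75 after lactate placed it 97.1% from the top on average. VTN, the adhesive protein vitronectin, had 1 peak of 379 bp in control replicate 2, in the flanking gene SEBOX. FGA, FGB and FGG, which encode the chains of fibrinogen side by side on chromosome 4, had no peak, nor did F5 (factor V), PLG (plasminogen) or KNG1 (kininogen). The peak nearest to any fibrinogen gene lay 127755 bp from FGG, in lactate replicate 2.

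Apolipoprotein genes held 10 and 10 peaks in controls against 2 and 3 after lactate, and most of these lay in the cluster on chromosome 11. APOA4, which encodes a lipoprotein component made mainly in the intestine, had 5 and 5 peaks in controls against 0 and 0 after lactate. Those peaks covered 3906 and 3104 bp of its window in the control libraries. APOC3, an inhibitor of triglyceride clearance, had 4 and 5 peaks in controls against 2 and 2 after lactate. APOA1, the main protein of high-density lipoprotein, had 2 and 2 peaks in controls against 1 and 1 after lactate. Its lactate peaks lay 4777 and 4749 bp from the gene, inside APOC3, so on the gene span alone APOA1 was marked in controls only. APOA5, at the other side of the cluster, had none.

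Within the cluster the difference between groups had a position. The 4 regions that held a peak in both control libraries around APOA4, from 116816990 to 116827868 of chromosome 11, held none after lactate. The 2 regions at the end of APOC3 that faces APOA4, from 116828800 to 116831053, held a peak in all 4 libraries. A further region at APOA1, from 116837507 to 116837908, was in the control libraries alone.

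**Figure D2:**
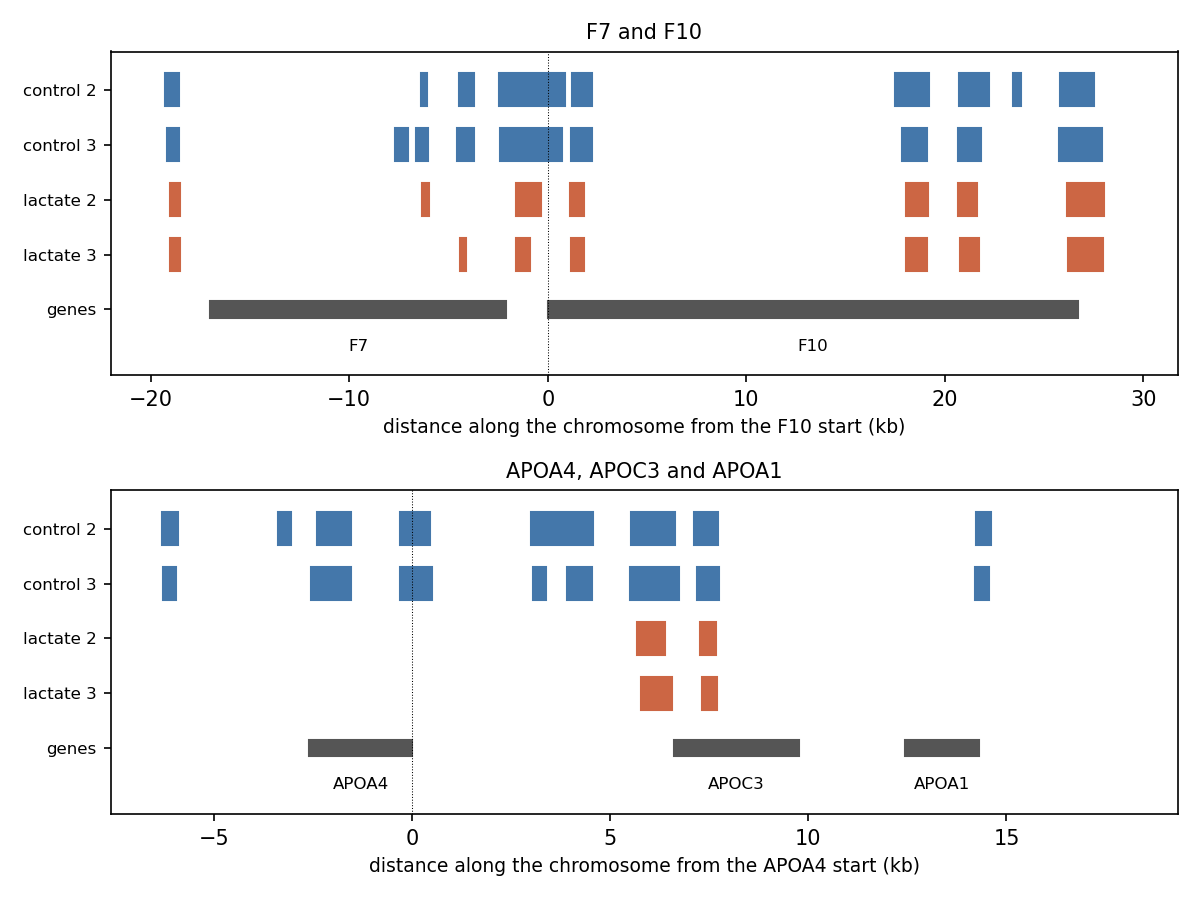
Peaks of the 4 libraries (bars, control in blue and lactate in orange) at F7 with F10 (top) and at APOA4, APOC3 and APOA1 (bottom), by distance along the chromosome in kb from the F10 or APOA4 start. Gene spans are grey. At F7 and F10 the lactate libraries mostly have shorter bars at the same places. The exception is the far end of F10, with widths of 1693 and 2173 bp in controls against 1882 and 1751 bp after lactate, which overlap. At APOA4 the lactate rows are empty.

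Of the other apolipoproteins, APOA2 (a second high-density lipoprotein protein) had 1 and 1 control peaks, 493 and 352 bp wide, which lay in the downstream gene FCER1G. APOE, the ligand that clears remnant particles, had 1 and 1 peaks in controls against 0 and 1 after lactate. The APOE peaks lay upstream, in TOMM40, and were 1159 and 1209 bp wide in controls and 393 bp in lactate replicate 3. APOB (the backbone of low-density lipoprotein), APOC1 and APOH had none.

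All 3 complement genes had a peak in some library. C3, the central component, had 4 and 4 peaks in controls against 0 and 2 after lactate. The C3 regions with a peak in both controls were 6693054 to 6693526 and 6713250 to 6714233 of chromosome 19. Both also held a peak in lactate replicate 3. The other C3 peaks each lay at a place seen in a single control library. C5, the start of the terminal pathway, had 1 and 1 control peaks, 334 and 482 bp wide, and no lactate peak. The C5 peak of control replicate 3 also overlapped the neighbouring gene CNTRL and had a low fold of 4.32. CFB, factor B of the alternative pathway, had 2 and 1 peaks in controls against 2 and 1 after lactate, the same counts in both groups.

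Peaks were unevenly spread over the set. The 44 windows merge into 39 stretches, because F7 with F10, ORM1 with ORM2, APOC1 with APOE, and APOA1 and APOA4 with APOC3 share bases. Of these 39, the 5 with the most peaks were F7/F10, ITIH4, APOA1/APOA4/APOC3, SERPINF2 and ITIH1. They make up 12.2% of the length and held 67.3% and 62.0% of the control and 66.7% and 62.5% of the lactate peaks. These stretches were picked for their peaks, so the shares are a description. Over all member windows the density was 43.3 and 39.3 peaks per Mb in controls against 28.3 and 25.2 after lactate. Over all coding windows it was 26.6 and 27.3 peaks per Mb in controls against 19.3 and 19.6 after lactate. Outside the 5 stretches the member windows held 16.1 and 17.0 peaks per Mb in controls against 10.8 and 10.8 after lactate.

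Peaks also belonged partly to the neighbours. Of the distinct peaks in member windows, 70.9% and 68.0% in controls against 72.2% and 62.5% after lactate touched the span of a member. For 7 members, ORM2, CRP, HAMP, F12, VTN, APOA2 and APOE, every peak lay in the flanks. With the gene span alone, 9 members had a peak in all 4 libraries, beside 27.5% of coding genes, and 28 had none, beside 48.1%. The member peaks were ordinary in height, with a median fold of 6.48 and 7.37 in controls against 7.13 and 7.27 after lactate. The medians over all peaks were 7.13 and 7.61 in controls against 7.16 and 7.33 after lactate.

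The second question was how the set differed between control and lactate libraries. A peak was found at 20 and 20 members in the control libraries and at 13 and 14 in the lactate libraries, beside 49.2% and 50.8% of coding genes in controls against 41.8% and 42.3% after lactate. As shares of the set these are 45.5% and 45.5%, and 29.5% and 31.8%. The control libraries shared 18 members and the lactate libraries shared 12. Group means were 20 ± 0 and 13.5 ± 0.707 members (SD, n = 2), a difference of -6.5 (exact two-sided permutation test, p = 0.333). With 2 libraries against 2 this test cannot give a p below 0.333. The difference was -1 with flanks of 10 kb (exact permutation p = 1) and -2 when each library was held to its 37951 best peaks by -log10 p (exact permutation p = 0.333).

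Distinct peaks in the member windows numbered 55 and 50 in controls against 36 and 32 after lactate, a lactate to control ratio of 0.648 (exact permutation p = 0.333). For all peaks in the lists the ratio was 0.726. With lists of 37951 peaks each the ratio in member windows was 0.958 (exact permutation p = 0.667). Covered bases in the windows were 40207 and 36834 in controls against 19983 and 18915 after lactate, a ratio of 0.505 (exact permutation p = 0.333) and 0.634 with equal numbers of peaks. As shares of the windows these were 3.16% and 2.90% in controls against 1.57% and 1.49% after lactate. Over all coding windows the shares were 2.15% and 2.17% in controls against 1.13% and 1.12% after lactate.

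The median width of member peaks was 526 and 572.5 bp in controls against 399.5 and 490 bp after lactate, a difference of -104.5 bp between group means of 549 ± 32.9 and 445 ± 64.0 bp (SD, n = 2, exact permutation p = 0.333). Over peaks of all coding windows the medians were 563 and 553 bp in controls against 454 and 445 bp after lactate. The gap at the members was 1.63 times the larger SD, the smallest such multiple among the measures compared here. Leaving out lactate replicate 2 brought the difference to -59.2 bp, and equal numbers of peaks brought it to -341.5 bp. The latter setting dropped peaks mainly from the longer control lists. It raised the control medians to 717.5 and 855 bp and left the lactate medians at 399.5 and 490 bp.

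**Figure D3:**
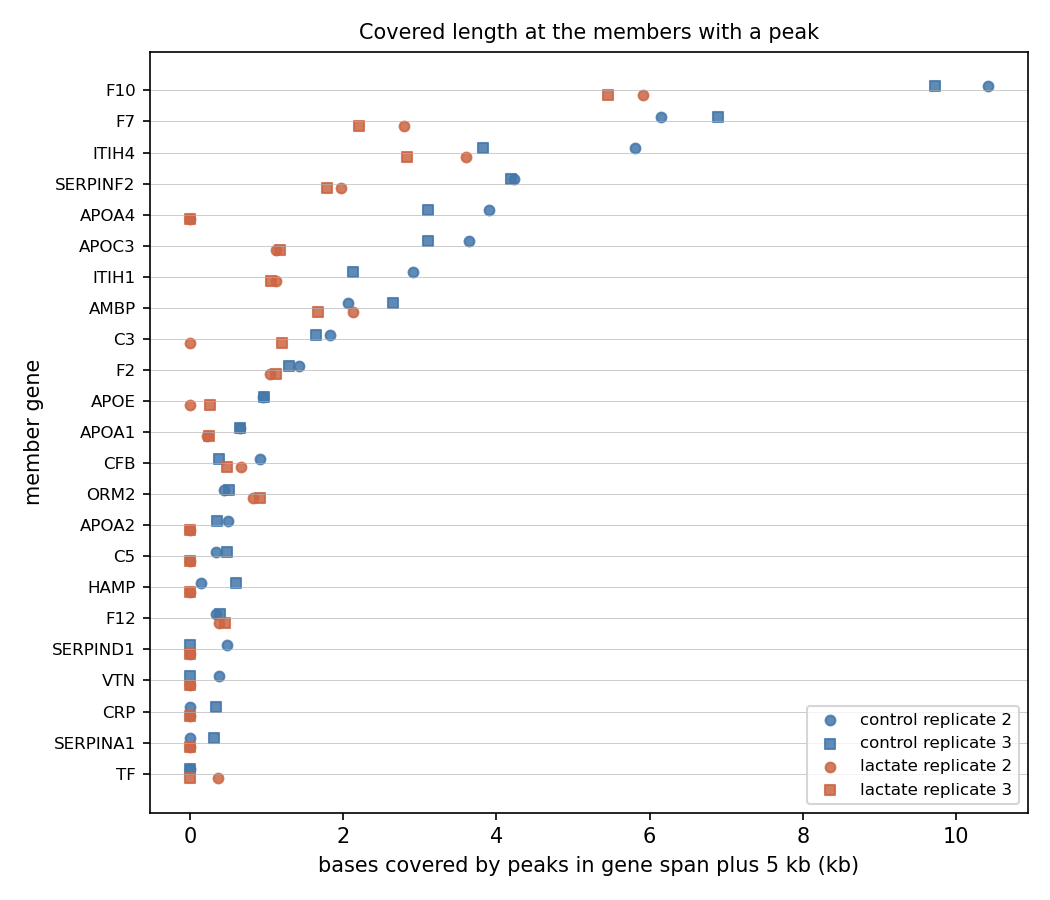
Bases covered by peaks (kb) in the span plus 5 kb of each of the 23 members with a peak in any library, with a point per library. Circles are replicate 2, squares replicate 3, control blue and lactate orange. The lactate points of F10, F7, SERPINF2, APOC3 and ITIH1 lie left of both control points, and those of ORM2 lie right of them.

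Among the 12 members marked in all 4 libraries, covered bases were lower in both lactate than in both control libraries at 8 of 12, beside 69.6% of the coding genes of the same class. These were SERPINF2, ITIH1, ITIH4, F2, F7, F10, APOA1 and APOC3. Some peaks count at both F7 and F10, and some at both APOA1 and APOC3, so the 8 are not independent. ORM2, through its peaks in AKNA, alone was higher in both lactate libraries, beside 4.59% of coding genes, and AMBP, F12 and CFB overlapped between groups. The median lactate to control ratio of covered bases was 0.617 for these 12 members and 0.599 for the coding genes of the class.

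F10 had 10414 and 9729 covered bases in controls against 5918 and 5451 after lactate, a ratio of 0.564. F7 had 6147 and 6896 in controls against 2789 and 2200 after lactate, a ratio of 0.383. The peak between them, which spans the F10 start in the control libraries, was 3301 and 3150 bp wide there. In the lactate libraries the peaks at the same place were 1247 and 724 bp wide and ended before the F10 start. At SERPINF2 the widest peak was 1721 and 1911 bp in controls against 799 and 744 bp after lactate. At ITIH4 these widths were 1584 and 1447 bp in controls against 695 and 750 bp after lactate, and at F2 928 and 905 bp against 371 and 396 bp.

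Merging the 4 lists inside the member windows gave 71 regions. Of these, 19 held a peak in all 4 libraries, 13 in both control libraries alone, and 2 in both lactate libraries alone. A further 21 held a peak in a single library and 16 were mixed. The same split was not counted over the regions of all coding windows, and the control lists held more peaks. It is therefore only a description of the member windows. The 2 lactate regions lay inside F2, at 46723355 to 46723720 of chromosome 11, and beyond ORM2, at 114336130 to 114336545 of chromosome 9. Each of the 12 members marked in all 4 libraries held at least 1 region with a peak in all 4.

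The third question was whether the mark lay at the gene start. A start was listed for 35 members. TTR, HP, ORM2, SERPINC1, SERPINF2, APOA1, APOB, APOC3 and C3 had no entry. A peak within 1 kb of a listed start was found at 6 and 7 members in controls against 5 and 4 after lactate, beside 16.4% and 18.1% of coding genes in controls against 10.7% and 10.8% after lactate. The group means were 6.5 ± 0.707 and 4.5 ± 0.707 (SD, n = 2), a difference of -2 (exact permutation p = 0.333). In any library such a peak was found at 8 of 35 members (22.9%), beside 23.6% of coding genes.

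ITIH4, F2 and F10 had a start peak in all 4 libraries, 8.57% of members beside 6.02% of coding genes. AMBP had it in 3 libraries, APOA4 and C5 in the control libraries alone, and SERPINA1 in control replicate 3 alone. CFB had it in the lactate libraries alone, but its control peaks lay close by, with summits 1348 and 1286 bp after the start against 1175 and 1241 bp in the lactate libraries. At F2 the summits lay 592 and 616 bp after the start in controls against 628 and 622 bp after lactate, so the 4 summits lay close together. At ITIH4 the summits lay upstream, at -1076 and -1017 bp in controls against -1028 and -1562 bp after lactate. At F10 they lay at -1116 and -1044 bp in controls against -1389 and -1395 bp after lactate. The start peaks of ITIH4 and F10 thus reached within 1 kb by their edges and not by their summits. With the summit required within 1 kb, start peaks were found at 4 and 5 members in controls against 2 and 1 after lactate.

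The sequences just before the start are shown for the 4 members with a start peak in the most libraries, and for ALB, which had no peak, as a contrast. Each runs 5′ to 3′ on the gene's strand, from 250 bases before the start to 10 after it, from RefSeq on GRCh38.p14. Capitals mark matches to TTGCNNAA (a C/EBP-like site) and CAAAGTCCA (an HNF4 site) on either strand, and to TATAAA on the gene's strand. No match of one motif overlapped another in these 5 sequences.
F10 (chr13:113122549-113122808, + strand): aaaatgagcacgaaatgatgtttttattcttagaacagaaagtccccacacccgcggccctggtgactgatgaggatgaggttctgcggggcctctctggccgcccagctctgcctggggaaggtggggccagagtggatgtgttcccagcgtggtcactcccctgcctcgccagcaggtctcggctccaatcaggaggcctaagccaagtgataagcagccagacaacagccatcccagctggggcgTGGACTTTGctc
ITIH4 (chr3:52830663-52830922, - strand): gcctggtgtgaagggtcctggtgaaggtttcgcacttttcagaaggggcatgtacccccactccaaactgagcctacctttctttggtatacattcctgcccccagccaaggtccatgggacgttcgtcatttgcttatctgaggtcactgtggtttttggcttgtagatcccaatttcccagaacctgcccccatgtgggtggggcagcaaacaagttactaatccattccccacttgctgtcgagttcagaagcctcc
F2 (chr11:46718963-46719222, + strand): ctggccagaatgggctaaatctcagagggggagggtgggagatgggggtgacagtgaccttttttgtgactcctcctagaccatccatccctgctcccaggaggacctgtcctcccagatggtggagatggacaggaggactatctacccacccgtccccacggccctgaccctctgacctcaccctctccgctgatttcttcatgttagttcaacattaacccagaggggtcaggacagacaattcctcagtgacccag
AMBP (chr9:114078291-114078550, - strand): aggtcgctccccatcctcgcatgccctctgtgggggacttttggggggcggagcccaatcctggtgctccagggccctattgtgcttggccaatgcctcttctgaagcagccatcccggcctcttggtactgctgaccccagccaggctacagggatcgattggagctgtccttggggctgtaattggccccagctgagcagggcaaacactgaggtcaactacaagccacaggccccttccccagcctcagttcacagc
ALB (chr4:73404037-73404296, + strand): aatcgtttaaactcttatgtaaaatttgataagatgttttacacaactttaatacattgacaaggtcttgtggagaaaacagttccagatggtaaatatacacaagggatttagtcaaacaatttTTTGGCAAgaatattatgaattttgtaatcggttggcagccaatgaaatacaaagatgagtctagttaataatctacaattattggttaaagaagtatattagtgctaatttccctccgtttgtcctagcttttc

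Counting the start as position 0, the ALB stretch held the reverse complement of the C/EBP-like letters at -125, and F10 that of the HNF4 letters at -2. F2, ITIH4 and AMBP held none of the 3 motifs. Control peaks covered all 260 bases shown for F10 in both libraries, and lactate peaks covered 0 of them. For F2 the covered bases were 80 and 31 in controls against 0 and 0 after lactate. For AMBP they were 5 and 78 in controls against 82 and 0 after lactate. For ITIH4 and ALB no base shown lay in a peak of any library.

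Over the windows from 250 bases before to 50 after the start, the C/EBP-like letters were found at 8 of 35 members, ALB, AFP, HPX, AHSG, FGA, FGB, KNG1 and VTN, of which VTN alone had a peak, and in 8.40% of coding genes. TATAAA was found at 7 members and in 6.95% of coding genes, and the HNF4 letters at 2 members and in 0.304% of coding genes. The stretches also differed in base composition. The median G and C content of the window was 47.0% over 17 members without a peak, 58.2% over 8 members with a peak in all 4 libraries, and 60.5% over 10 members with a peak in some libraries. Over coding genes the medians were 59.7% without a peak and 65.3% with a peak in all 4 libraries. The part of base composition in the motif counts was not tested.

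Members with and without peaks also differed in their surroundings. In the 500 kb on either side of the window, members with a peak in all 4 libraries had a median of 53.8 peaks per Mb, as a mean per library. The range was 26.2 to 191 peaks per Mb. Members without a peak had a median of 4 peaks per Mb, with a range of 1.25 to 57.8. The same order was seen over all coding genes, at 38 peaks per Mb for those marked in all 4 libraries and 5.75 for those without a peak. SERPINC1 had the lowest value, at 1.25 peaks per Mb, and ALB, AFP and TTR each had 2. The fibrinogen genes each had 4. In contrast ORM1, APOC1, APOA5 and APOB had no peak of their own in surroundings of 57.8, 54.0, 37.0 and 36.2 peaks per Mb. At F10 and F7 the surroundings held 191 and 182 peaks per Mb. Neighbouring members share their surroundings, and how far the surroundings account for the member peaks was not tested.

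**Figure D4:**
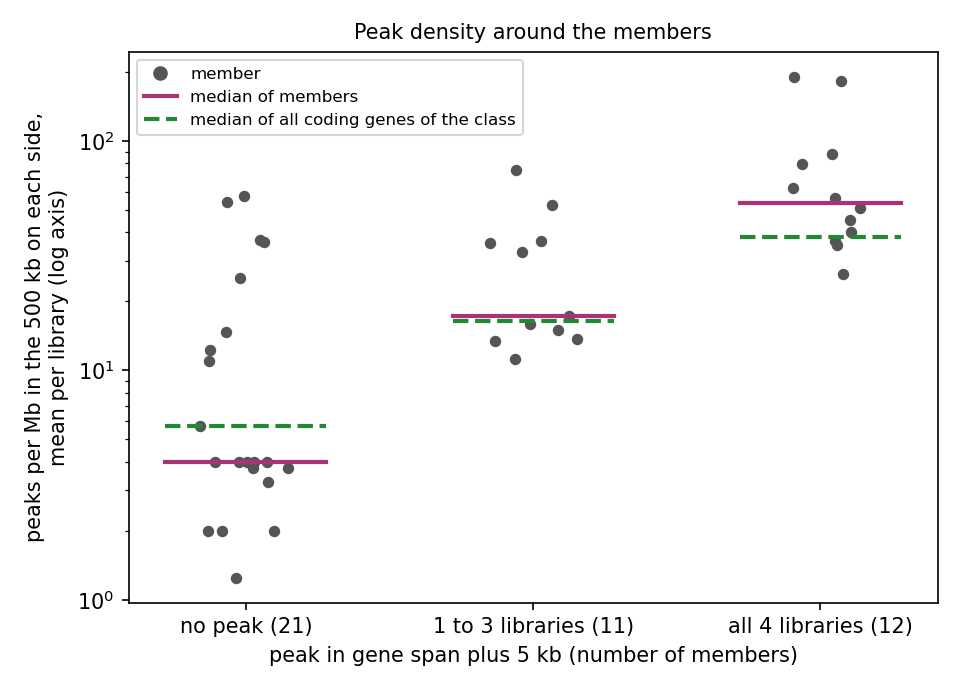
Peaks per Mb in the 500 kb on each side of the member window, as a mean per library on a log axis, for the 21 members without a peak, the 11 with a peak in 1 to 3 libraries and the 12 with a peak in all 4. Points are members, solid lines their medians (4, 17.2 and 53.8) and dashed lines the medians of all coding genes of the class (5.75, 16.5 and 38). Of the 21 members without a peak, 4 lie above 26.2, the lowest value of the right group.

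Another 67 genes for proteins secreted by the liver were drawn up as a separate list. Some of their windows hold peaks already counted at members, as at C2 beside CFB and at ITIH3 beside ITIH1, so the lists are not independent. Of these, 15 (22.4%) had a peak in all 4 libraries, 3 in the control libraries alone, 0 in the lactate libraries alone, 12 were mixed and 37 (55.2%) had none, beside 33.0% of coding genes in all 4 and 40.6% with none. By the place of their best fold, PROZ (protein Z, a cofactor in the control of factor X), AGT (angiotensinogen) and HGFAC (the activator of hepatocyte growth factor) led those in all 4. PROZ lies beside F10, shares part of its window and had 5 and 5 peaks in controls against 2 and 5 after lactate. AGT had 7 and 7 peaks in controls against 3 and 4 after lactate. At HGFAC the widest peak was 5327 and 5317 bp in controls against 1072 and 2199 bp after lactate.

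SERPING1 (the C1 inhibitor), ITIH2 and PROS1 (protein S) were in the control libraries alone. Among the mixed genes, A2M (alpha-2-macroglobulin) and C6 had 1 peak each, in lactate replicate 3. C8G had 3 and 3 peaks in controls against 0 and 1 after lactate. Genes without a peak included F9, F11, GC, CP, HRG, the SAA1, SAA2 and SAA4 genes and the C4A and C4B pair. C4A and C4B are near-identical copies, as are SAA1 and SAA2, so their reads may be assigned uncertainly.

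The label of a liver tumour line was set beside markers, although a peak of this mark is not a measure of expression. Of 7 hepatocyte-defining members, ALB, TTR, APOB and FGB had no peak, SERPINA1 and TF had a peak in 1 library each, and APOA1 had a peak in all 4, after lactate only in the flank it shares with APOC3. These are 14.3% in all 4 libraries and 57.1% with none, beside 33.0% and 40.6% of coding genes. Markers of other cells had a peak in all 4 libraries at 3 of 12 blood cell genes, 6 of 10 stromal and endothelial genes and 2 of 5 bile duct genes. As shares these are 25.0%, 60.0% and 40.0%, beside the same 33.0% of coding genes, and those with no peak were 41.7%, 30.0% and 20.0%, beside 40.6%.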

How the data were processed

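H4K5la was mapped by ChIP-seq in 2 control and 2 lactate libraries of PLC/PRF/5 cells, grouped by the treatment label, with replicate numbers from the titles. Trimming, alignment and removal of duplicates were done per the labels' protocols. Tools named per the submitters' processing notes include Trimmomatic 0.38, Bowtie2 2.3.4.2, Picard 2.18.11 and MACS2 2.2.6, and the build is hg38. The deposited lists hold 1 library each and give, from the authors, an integer score, a fold enrichment (ratio), a -log10 p-value and a -log10 q-value per peak. In each deposited list the lowest -log10 q was 2.00 to 2.02.

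Peaks were intersected with gene spans of GRCh38.p14 by at least 1 bp, using Python 3.11.15, pandas 2.3.3 and numpy 2.4.6, with plots by matplotlib 3.10.9. Overlap counting was tested on simulated data. Library values were tested by exact permutation (two-sided, 6 assignments), and classes of genes were counted without a test. Alternatives were flanks of 0, 1 and 10 kb, a -log10 q of at least 5, equal numbers of peaks, the summit or 50% of the peak inside the window, peaks within 1 kb joined, a start window of 3 kb, each library left out and a replicate block; scoring members without a listed start by either gene end was added after seeing the data. Starts, and promoter sequences for the most upstream start, came from RefSeq. Members in the control or lactate libraries alone, up to 10 in all 4 with the best places by fold, the 5 widest and those with a start peak are given with values; other members are given by class, and many also with values. From the other liver list up to 3 genes per class were named by rank. Genes named beyond this were chosen after their values were seen. Some other genes and 1 motif are not reported here. The members and lists were chosen with earlier results of these data known.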

Additional observations from a re-analysis of the deposited data

How the results depend on the processing

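Of 112 recomputed values, 107 kept their direction or, for counts of genes, stayed within 1.5 times the main count. The 5 others concern small counts. Members in the control libraries alone numbered 4, and 1 with flanks of 10 kb (C5) and 2 with equal numbers of peaks per library (HAMP and APOA4). Members in the lactate libraries alone numbered 0, and 3 with flanks of 10 kb (TF, ORM1 and SERPINA3), 1 with equal numbers (F12) and 1 without lactate replicate 3. Leaving out each library in turn gave 4 to 6 control-only members and 0 to 1 lactate-only members. With flanks of 10 kb control-only members were thus fewer than lactate-only ones, the opposite order to 5 kb. With 2 libraries a group no test could reach significance. Fitting within replicate numbers (a replicate block, exact sign-flip test, smallest p 0.5) gave -6.5 members, ratios of 0.647 for peaks and 0.505 for covered bases, -104.5 bp in width and -2 start peaks, each with p = 0.5. The numbers share no stated origin, and the replicate differences of the groups correlated with r = 0.0164 across 19970 coding genes, so the numbers were not taken as pairs. In a setting added after seeing the data, members without a listed start were scored at either gene end, and the difference in start peaks was -3.5. Depth limits the reading of genes without a peak.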
